A study of Homo sapiens with 9 samples.

Results

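The zinc finger genes of human chromosome 19 named ZNF plus a number were followed across 9 arrays of HEK 293 cells. They were taken from the authors' deposited comparison table as the transcript clusters with exactly 1 gene symbol, of the form ZNF followed by digits with or without a letter, and with chromosome 19 as their position. A transcript cluster is the group of array probes that covers one transcribed region. Of 28829 clusters in the table, 227 matched, and 222 of these, for 220 genes, had values. ZNF788, ZNF208, ZNF676, ZNF99 and ZNF781 had none and are not described further. ZNF587 and ZNF616 had 2 clusters each. No measured value entered the rule, although earlier results of these data were known when it was set. No filter on low signal was applied, so all 222 clusters with values were tested among 18683 clusters with 1 symbol.

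ZNF genes encode proteins with tandem C2H2 zinc fingers, small folds held together by a zinc ion that each read a few bases of DNA. Many of those on chromosome 19 also carry a KRAB domain, which recruits TRIM28 and through it the histone methyltransferase SETDB1 and HP1 proteins, and so silences chromatin, in many cases at transposable elements. The genes arose by repeated local duplication and lie in runs of close relatives along the chromosome. Their own chromatin is known to carry a mixture of silencing and elongation marks over the exons that encode the fingers.

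HEK 293 is an established human embryonic kidney line. The cells were transiently transfected with an empty plasmid called PCMV (here the vector group), with a plasmid for Aire or with one for MBD-VP16, and RNA was taken 72 h later; each of the 3 groups held 3 arrays, labelled as biologic replicates. Cells of all groups received the same transfection reagent, Mirus 293, and were grown in complete DMEM; total RNA was purified on Qiagen columns, amplified with NuGEN Ovation Pico WTA V2 and labelled with biotin. Aire is the autoimmune regulator, a chromatin reader of the thymus. MBD commonly stands for a methyl-CpG-binding domain and VP16 for a viral activation domain, but the labels describe neither the species nor the extent of either construct, nor the share of cells that took up a plasmid. Each value is an average over transfected and untransfected cells, so a change in the number of responding cells and one in RNA per cell cannot be told apart. Whether the arrays of a group came from separate cultures on separate days is not stated, so the p-values refer only to differences among these arrays, which may be technical.

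Values are log2 expression made with RMA, a method that corrects background, equalises the distribution of the arrays and summarises probes. Over the clusters with 1 symbol, medians of the 9 arrays lay between 6.52 and 6.56. Over all clusters with values the medians differed by group: 6.11 to 6.16 with vector, 6.18 to 6.19 with Aire and 6.21 to 6.23 with MBD-VP16. Of the line's own genes, 6 of 6 (KRT8, KRT18, PAX2, CDH2, VIM and EZR) had mean log2 signals of 6.13 to 10.57, and the 6 measured markers of blood, liver, connective and endothelial cells had 3.02 to 5.55, with no detection calls to say which were above background. As a check of the labels, MBD1, which encodes a methyl-CpG-binding protein, was at 8.19 ± 0.55 (SD, n = 3) with vector and 9.96 ± 0.14 with MBD-VP16, while AIRE was at 6.43 ± 0.1 with vector and 6.66 ± 0.095 with Aire and was not called (limma adjusted p = 0.174). Which probes of either gene lie within the plasmids is not known. Vector replicate 1 stood apart: the SD of its residuals was 0.164, where the remaining arrays had 0.111 to 0.138. Member counts are given with and without it, and calls of named members that were lost without it are stated.

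A call below means a Benjamini-Hochberg adjusted p under 0.05 over all 18683 clusters, from 1 limma model of the 9 arrays. Fold changes are differences of mean log2 values with the standard error of that fit. With MBD-VP16 against vector, 30 of the 222 members (13.5%) were called, 7 higher and 23 lower, where 13.6% of all clusters were called, 6.06% higher and 7.57% lower. With Aire against vector, 15 members (6.76%) were called, 3 higher and 12 lower, against 6.98% of all clusters, 2.47% higher and 4.52% lower. MBD-VP16 against Aire gave 7 (3.15%), 6 higher and 1 lower, against 1.96%, with 1.87% higher and 0.0963% lower. Groups whose 3 arrays did not overlap at all were seen in 62 members (27.9%) for MBD-VP16 against vector, 57 (25.7%) for Aire against vector and 41 (18.5%) between the constructs, where 30.9%, 26.7% and 19.8% of all clusters had them. The share of members called against vector thus lay near the background for either construct. In all, 182 of 222 members passed in none of the 3 comparisons, among them all 7 that RefSeq lists as pseudogenes. Small changes can be missed with 3 arrays per group, so a member not called may still have changed.

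Changes were small. Among members, log2 fold changes ran from -0.97 to 0.98 with MBD-VP16 against vector and from -0.71 to 0.46 with Aire against vector, and none passed 2-fold, which is 1 log2 unit. The median change of the members was -0.053 with MBD-VP16, beside 0.0 over all clusters, and -0.043 with Aire, beside 0.02. Members varied slightly more between replicates than clusters in general: the median standard error of a difference was 0.106 over the members and 0.0962 over all clusters.

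Promoters of 6 members are printed first as examples, because methylated CpG is what a methyl-CpG-binding domain recognises. The 6 were picked by hand for their changes and do not stand for all called members. ZNF844, ZNF556 and ZNF560 rose with MBD-VP16, and ZNF256, ZNF420 and ZNF585A fell with either construct. Each sequence is the RefSeq window of 300 bases in GRCh38.p14, from 250 bases before the annotated start to 50 bases after it, read 5′ to 3′ on the gene's strand, with every CG dinucleotide in capitals. The windows are chr19:12064481-12064780 on the plus strand, chr19:2867085-2867384 on the plus strand, chr19:9498567-9498866 on the minus strand, chr19:57947657-57947956 on the minus strand, chr19:37078183-37078482 on the plus strand and chr19:37172646-37172945 on the minus strand, in that order.
ZNF844: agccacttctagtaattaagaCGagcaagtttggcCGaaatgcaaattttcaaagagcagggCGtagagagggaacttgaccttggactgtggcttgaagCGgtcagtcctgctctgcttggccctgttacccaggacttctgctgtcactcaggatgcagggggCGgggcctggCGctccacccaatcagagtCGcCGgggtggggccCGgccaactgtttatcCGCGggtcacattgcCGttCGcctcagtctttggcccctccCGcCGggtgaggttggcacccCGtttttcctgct
ZNF556: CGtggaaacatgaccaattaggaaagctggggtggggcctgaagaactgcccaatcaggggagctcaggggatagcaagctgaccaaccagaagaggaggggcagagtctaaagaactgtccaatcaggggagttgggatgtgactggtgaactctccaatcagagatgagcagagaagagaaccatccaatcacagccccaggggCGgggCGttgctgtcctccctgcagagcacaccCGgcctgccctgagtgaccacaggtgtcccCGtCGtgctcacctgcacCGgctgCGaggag
ZNF560: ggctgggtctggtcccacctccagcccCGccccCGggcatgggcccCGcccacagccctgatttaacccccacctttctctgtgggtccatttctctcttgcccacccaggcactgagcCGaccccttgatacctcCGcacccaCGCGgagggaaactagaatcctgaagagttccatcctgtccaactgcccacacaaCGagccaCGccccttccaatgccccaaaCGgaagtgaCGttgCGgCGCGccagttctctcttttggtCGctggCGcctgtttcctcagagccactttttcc
ZNF256: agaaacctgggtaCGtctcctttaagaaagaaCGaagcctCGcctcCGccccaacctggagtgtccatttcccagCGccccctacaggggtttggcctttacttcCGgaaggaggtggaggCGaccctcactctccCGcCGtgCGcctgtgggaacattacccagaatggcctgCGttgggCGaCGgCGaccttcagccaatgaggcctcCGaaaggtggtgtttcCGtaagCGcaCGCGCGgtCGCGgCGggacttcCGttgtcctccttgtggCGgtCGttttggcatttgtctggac
ZNF420: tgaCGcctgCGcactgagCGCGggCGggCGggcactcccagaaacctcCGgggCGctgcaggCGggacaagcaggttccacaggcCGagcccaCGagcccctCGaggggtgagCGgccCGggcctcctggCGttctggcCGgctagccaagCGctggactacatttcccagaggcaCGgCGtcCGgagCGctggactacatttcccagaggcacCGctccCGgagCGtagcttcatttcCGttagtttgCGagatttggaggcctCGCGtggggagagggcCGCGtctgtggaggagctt
ZNF585A: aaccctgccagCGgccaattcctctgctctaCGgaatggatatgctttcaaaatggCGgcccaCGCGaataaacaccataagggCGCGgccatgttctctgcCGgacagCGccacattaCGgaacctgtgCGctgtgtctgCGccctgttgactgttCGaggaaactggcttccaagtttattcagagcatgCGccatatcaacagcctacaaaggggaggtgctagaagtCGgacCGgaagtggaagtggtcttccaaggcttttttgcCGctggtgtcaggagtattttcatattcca
The ZNF556 window held 8 CG pairs, and those of ZNF844 and ZNF560 held 16 each. ZNF256 held 26, ZNF420 30 and ZNF585A 17. The observed number over that expected from the base composition was 0.31, 0.61 and 0.61 for the first 3 and 0.93, 0.87 and 0.81 for the last 3. The other members that fell with either construct were ZNF461, ZNF507, ZNF583 and ZNF574. Their ratios were 0.8, 0.78, 0.74 and 0.22, so a low ratio was also found among those that fell. Methylation itself was not measured, and these positions should not be set against those of the deposited table, whose build is unstated.

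The members that rose with MBD-VP16 against vector were ZNF844, ZNF556, ZNF114, ZNF560, ZNF737, ZNF730 and ZNF738. Of these 7, 4 started from a low signal, with vector means under 5 on the log2 scale. ZNF844, a KRAB zinc finger gene (12175528 to 12188629 on the plus strand, in the deposited table's coordinates, of unstated build), read 3.68, 4.29 and 3.74 with vector, 3.85, 3.64 and 3.70 with Aire and 5.12, 4.83 and 4.69 with MBD-VP16. Its 3 MBD-VP16 arrays lay above all 6 others. It rose by 0.98 ± 0.16 (SE), a 1.97-fold increase (adjusted p = 0.00501).

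ZNF556 (2867333 to 2878515, plus strand) read 4.71, 4.67 and 4.88 with vector and 5.61, 5.44 and 5.52 with MBD-VP16, a 1.71-fold increase (0.77 ± 0.16, adjusted p = 0.0121). Its Aire arrays, at 4.73, 4.57 and 5.28, spread more widely than those of the other groups and stayed below the MBD-VP16 arrays. ZNF114 (48774654 to 48790863, plus strand) read 4.82, 4.84 and 4.94 with vector, 4.61, 4.59 and 4.52 with Aire and 5.72, 5.62 and 5.39 with MBD-VP16. The 3 groups of ZNF114 did not overlap, and only its rise with MBD-VP16 passed against vector (0.71 ± 0.09, 1.64-fold, adjusted p = 0.00109). ZNF560 (9577003 to 9609279, minus strand), a KRAB zinc finger gene, went from 3.22, 3.57 and 3.58 with vector to 4.25, 4.12 and 4.03 (0.68 ± 0.12, 1.6-fold, adjusted p = 0.00604), and Aire left it at 3.57, 3.28 and 3.54. These 4 calls held whichever of the 9 arrays was left out.

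ZNF730 (23316882 to 23329358, plus strand) was brighter and rose with both constructs, as described below. ZNF737 (0.38 ± 0.10, adjusted p = 0.035) and ZNF738 (0.26 ± 0.08, adjusted p = 0.0496), which other members separate from ZNF730, were called narrowly. They failed in 7 and 8 of the 9 fits that left out 1 array, with adjusted p up to 0.0983 and 0.138.

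The 23 members that fell with MBD-VP16 were spread over the chromosome. ZNF578 (53014310 to 53015407, plus strand) had the lowest value, with 5.78, 6.47 and 6.03 under vector, 5.47, 6.05 and 5.52 under Aire and 5.20, 5.28 and 4.88 under MBD-VP16. Its vector and Aire arrays overlapped and its MBD-VP16 arrays lay below both (-0.97 ± 0.20, 1.96-fold lower, adjusted p = 0.0125). ZNF585A and ZNF420 came next, at -0.79 ± 0.10 and -0.75 ± 0.09, then ZNF256 at -0.71 ± 0.09. These members are described with their Aire values below.

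ZNF616 gave a split answer. One of its clusters (52616344 to 52617115, minus strand) read 6.42, 6.19 and 6.15 with vector and 5.83, 5.69 and 5.18 with MBD-VP16 (-0.69 ± 0.16, adjusted p = 0.0203). The other (52617653 to 52643191) read 6.59, 6.39 and 6.36 with vector and 6.46, 6.11 and 6.54 with MBD-VP16, and was not called (-0.08 ± 0.11, adjusted p = 0.715). The 2 probe groups of this gene thus differed, and the call of the first was lost without vector replicate 1 (adjusted p = 0.0656).

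ZNF324 (58978459 to 58984798, plus strand) read 6.05, 5.94 and 5.98 with vector and 5.43, 5.62 and 5.48 with MBD-VP16 (-0.48 ± 0.08, adjusted p = 0.00343). ZNF285A, now named ZNF285, went from 5.33, 5.59 and 5.39 to 4.87, 4.98 and 5.04 (-0.47 ± 0.09, adjusted p = 0.00827), and ZNF416 fell by 0.48 (adjusted p = 0.0055). In these 3 genes every MBD-VP16 array lay below every vector array. By the authors' deposited values ZNF285A did not pass (false discovery rate 0.084), while ZNF324 and ZNF416 did (0.0025 and 0.0061). ZNF155 (-0.47, adjusted p = 0.0242), ZNF121 (-0.30, adjusted p = 0.0484), ZNF227 (-0.28, adjusted p = 0.039) and ZNF146 (-0.23, adjusted p = 0.0489), the last a gene for a protein made almost wholly of zinc fingers, were called less firmly: ZNF155 failed in 4 of the 9 leave-one-out fits and the other 3 in 8. Without vector replicate 1, ZNF155, ZNF121, ZNF227 and ZNF146 were not called (adjusted p = 0.0651, 0.117, 0.0963 and 0.111). A further 7 members fell by 0.31 to 0.47, with adjusted p of 0.0156 to 0.0452.

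Leaving out vector replicate 1 changed the balance of this comparison. It then gave 12 members higher and 11 lower, against 4.97% and 4.87% of all clusters, and 6 of the 7 higher and 11 of the 23 lower calls remained. Without MBD-VP16 replicate 2 the counts were 6 and 13, and without MBD-VP16 replicate 3 they were 5 and 12, where 7.42% and 8.15% of all clusters were called. Centring each array on its own median over all clusters with values gave 5 higher and 40 lower, beside 753 and 2282 over all clusters tested. The excess of lower over higher calls among members was therefore not stable to the choice of vector arrays.

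**Figure D1:**
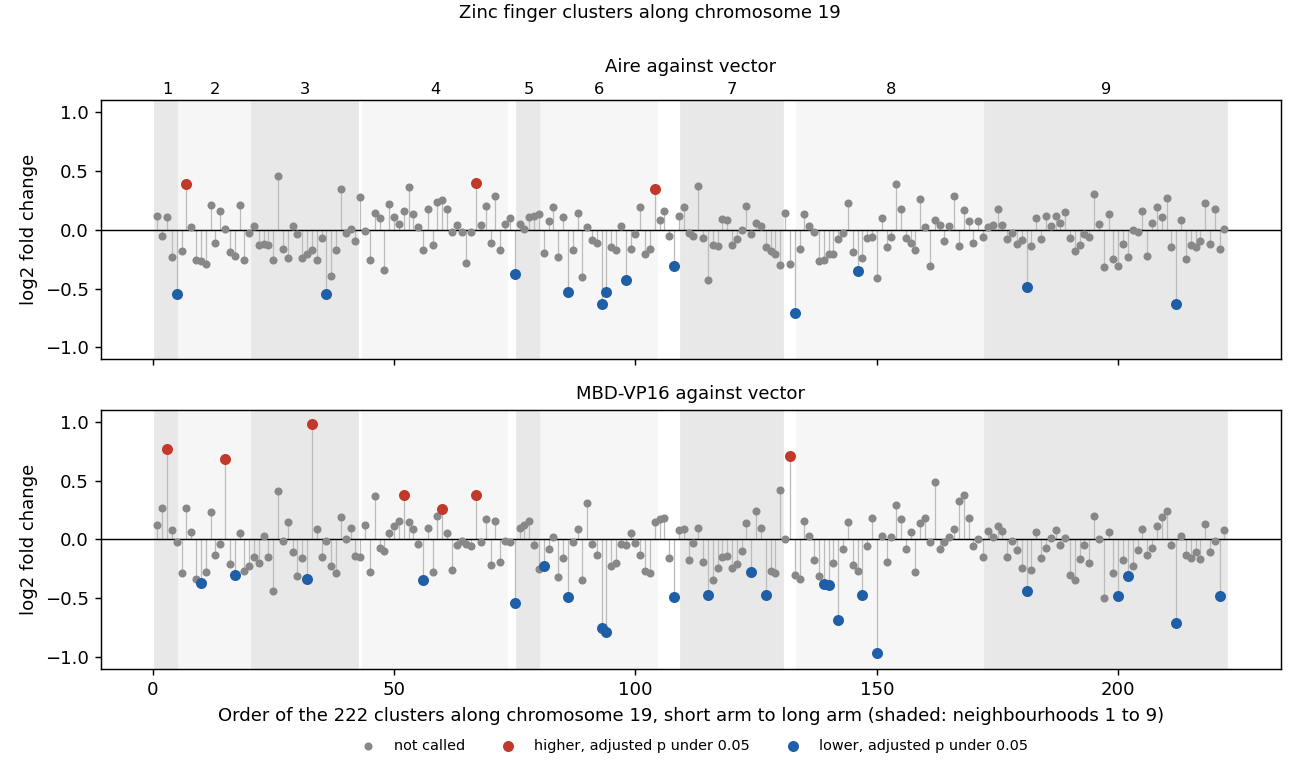
Log2 fold change (vertical axis) of the 222 clusters in their order along chromosome 19 (horizontal axis), with Aire against vector above and MBD-VP16 against vector below; red and blue points are members called higher and lower at a limma adjusted p under 0.05, grey points were not called, and shading marks the 9 neighbourhoods. Called members are scattered along the whole row, with 3 higher and 12 lower in the upper panel and 7 higher and 23 lower in the lower one.

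With Aire against vector, 12 members fell and 3 rose. ZNF473 had the lowest value. This gene (50529212 to 50552033, plus strand) encodes a component of the U7 small nuclear ribonucleoprotein machinery that processes histone pre-mRNA, known as ZFP100. It read 8.29, 7.96 and 8.03 with vector, 7.44, 7.40 and 7.31 with Aire and 7.82, 7.84 and 7.72 with MBD-VP16. Its Aire arrays lay below all others, a 1.64-fold drop against vector (-0.71 ± 0.09, adjusted p = 0.00364), while the difference of MBD-VP16 from vector was not called (-0.30, adjusted p = 0.0589).

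ZNF57 (2900955 to 2918474, plus strand) read 7.94, 8.12 and 7.87 with vector, 7.30, 7.67 and 7.31 with Aire and 7.88, 8.04 and 7.94 with MBD-VP16, so that only the Aire arrays stood low (-0.55 ± 0.11, adjusted p = 0.0203). ZNF563 showed the same order, with 5.16, 5.16 and 4.86 under vector, 4.56, 4.53 and 4.45 under Aire and 5.31, 4.83 and 5.01 under MBD-VP16 (-0.55 ± 0.13, adjusted p = 0.0325). ZNF569 (-0.43, adjusted p = 0.0439) and ZNF480 (-0.35, adjusted p = 0.0333) were also lower. ZNF57 overlaps ZNF77 on the other strand, so their signals may not be separate.

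Of the 3 that rose with Aire, ZNF358 went from 8.39, 8.52 and 8.46 to 8.87, 8.88 and 8.79 (0.39 ± 0.08, adjusted p = 0.0198), with every Aire array above every vector array. ZNF730 rose by 0.40 and ZNF573 by 0.35 (adjusted p = 0.014 and 0.0379). ZNF573 read 5.37, 5.51 and 5.57 with vector and 5.90, 5.75 and 5.86 with Aire.

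Few of these calls were robust to the arrays used. ZNF473, ZNF256, ZNF420 and ZNF461 were the 4 of 15 that passed whichever array was left out. ZNF730 and ZNF585A failed in 1 of the 9 such fits (adjusted p up to 0.0562 without Aire replicate 3 and 0.0514 without Aire replicate 1), ZNF57 and ZNF583 in 3, ZNF358 and ZNF574 in 4, ZNF563 and ZNF573 in 6, ZNF480 in 7, and ZNF569 and ZNF507 in 8. Without Aire replicates 1, 2 and 3 in turn, the higher and lower counts were 1 and 4, 1 and 7, and 0 and 5, where 3.03%, 2.54% and 2.69% of all clusters were called. Without vector replicates 1, 2 and 3 in turn they were 2 and 8, 2 and 7, and 6 and 12. In those fits 4.76%, 3.84% and 6.04% of all clusters were called. Calls lost without vector replicate 1 were those of ZNF358 (adjusted p = 0.0515), ZNF573 (0.0904), ZNF563 (0.0869), ZNF569 (0.0864) and ZNF480 (0.0808). ZNF583 and ZNF507 were lost as well and are given below.

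In 8 members both comparisons against vector were called, 7 lower and 1 higher. The same 3 vector arrays enter both, so the 2 differences are not independent, and 3.65% and 1.62% of all clusters were lower and higher in both. ZNF256 (58452201 to 58459077, minus strand), a KRAB zinc finger gene, read 8.18, 8.11 and 8.02 with vector, 7.35, 7.46 and 7.61 with Aire and 7.51, 7.35 and 7.31 with MBD-VP16. Either construct's arrays lay below every vector array, by -0.63 ± 0.09 with Aire (adjusted p = 0.00511) and -0.71 ± 0.09 with MBD-VP16 (adjusted p = 0.00106).

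ZNF420, a KRAB zinc finger gene whose product, also called APAK, restrains p53, read 7.55, 7.36 and 7.35 with vector, 6.94, 6.80 and 6.64 with Aire and 6.75, 6.65 and 6.62 with MBD-VP16. ZNF585A read 8.04, 7.91 and 7.80, then 7.27, 7.46 and 7.44, then 7.19, 6.97 and 7.21 in the same order of groups. Both genes were lower with either construct without overlap, ZNF420 by 1.54-fold and 1.68-fold and ZNF585A by 1.44-fold and 1.73-fold with Aire and MBD-VP16 (adjusted p of 0.00622 and 0.00105, then 0.0134 and 8.69e-04). Their annotated spans overlap on opposite strands, 37569337 to 37621212 on the plus strand for ZNF420 and 37597638 to 37663628 on the minus strand for ZNF585A. Whether the probes keep the strands apart is not known, so the 2 values may not be independent.

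ZNF461 (37128283 to 37157739, minus strand), also in that stretch, read 6.81, 6.95 and 6.80 with vector, 6.34, 6.26 and 6.36 with Aire and 6.33, 6.38 and 6.37 with MBD-VP16. The 6 arrays of the Aire and MBD-VP16 groups spanned a narrow range below all 3 vector arrays (-0.53 ± 0.07, adjusted p = 0.00334, and -0.49 ± 0.07, adjusted p = 0.00174). ZNF574 read 7.25, 7.36 and 7.35, then 7.03, 6.94 and 7.05, then 6.84, 6.85 and 6.81, with the 3 groups apart in that order (-0.31 and -0.49, adjusted p = 0.0214 and 0.00145). ZNF507 (-0.38 and -0.54, adjusted p = 0.0475 and 0.00692) and ZNF583 (-0.49 and -0.44, adjusted p = 0.0199 and 0.0172) complete the 7 that fell. Without vector replicate 1, ZNF583 was not called with Aire (adjusted p = 0.0554) or MBD-VP16 (adjusted p = 0.0514), and ZNF507 was not called with Aire (adjusted p = 0.0999).

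ZNF730 was the member higher with both. It read 8.92, 9.05 and 8.86 with vector, 9.31, 9.30 and 9.43 with Aire and 9.37, 9.33 and 9.27 with MBD-VP16. All 6 arrays of the Aire and MBD-VP16 groups lay above all 3 vector arrays, by 0.40 ± 0.07 (adjusted p = 0.014) and 0.38 ± 0.07 (adjusted p = 0.0096).

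**Figure D2:**
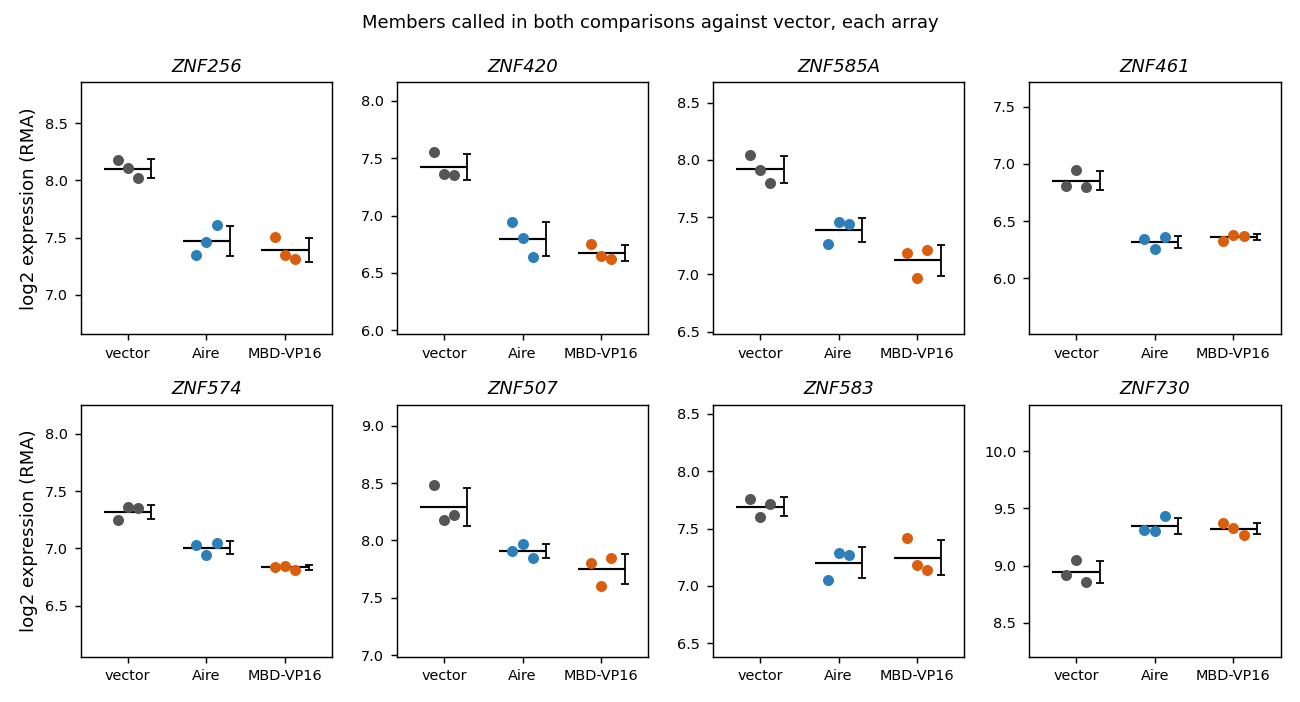
Log2 expression (vertical axis, RMA) on each of the 9 arrays for the 8 members called in both comparisons against vector; points are arrays, horizontal lines are group means and bars to their right are 1 SD (n = 3). In ZNF256 to ZNF583 all vector points lie above the Aire and MBD-VP16 points, and in ZNF730 they lie below.

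Setting MBD-VP16 against Aire directly, 7 members were called: ZNF844, ZNF114, ZNF560, ZNF296, ZNF57 and ZNF136 were higher with MBD-VP16 and ZNF333 was lower. ZNF844 and ZNF114 differed by 1.15 ± 0.16 and 1.00 ± 0.09 log2 units (adjusted p = 0.00558 and 2.73e-04) and were the only members past 2-fold in this comparison; they were also the 2 of 7 calls that held whichever array was left out. ZNF560 differed by 0.67 ± 0.12 (adjusted p = 0.0192).

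ZNF296, which in mouse is studied for its part in embryonic stem cells and heterochromatin, read 7.59, 7.24 and 7.63 with Aire and 8.26, 8.05 and 8.30 with MBD-VP16 (0.72 ± 0.13, adjusted p = 0.0207). Its vector arrays, at 7.64, 7.99 and 7.72, lay between the 2 and differed from neither by the test (adjusted p = 0.209 for Aire and 0.0591 for MBD-VP16). ZNF136 read 7.95, 7.93 and 7.82 with Aire and 8.30, 8.16 and 8.28 with MBD-VP16 (0.35 ± 0.07, adjusted p = 0.036). ZNF57 differed by 0.53 (adjusted p = 0.0472), since only its Aire arrays were low. That call was lost without vector replicate 1 (adjusted p = 0.0605). ZNF333 read 5.20, 5.27 and 5.30 with Aire and 4.81, 4.82 and 4.85 with MBD-VP16 (-0.43 ± 0.08, adjusted p = 0.03).

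ZNF473, lowest with Aire, was 0.41 higher with MBD-VP16 than with Aire and did not pass (adjusted p = 0.0631). It passed without vector replicate 1 (adjusted p = 0.0147). The number of calls fell with each Aire or MBD-VP16 array left out, to 4, 3 and 4 without Aire replicates 1, 2 and 3 and to 2, 4 and 3 without MBD-VP16 replicates 1, 2 and 3, where 1.24% to 1.49% of all clusters were called. ZNF333 was lost in each of those 6 fits. Without vector replicates 1, 2 and 3 there were 8, 5 and 5 calls, where 2.25%, 1.76% and 1.77% of all clusters were called.

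**Figure D3:**
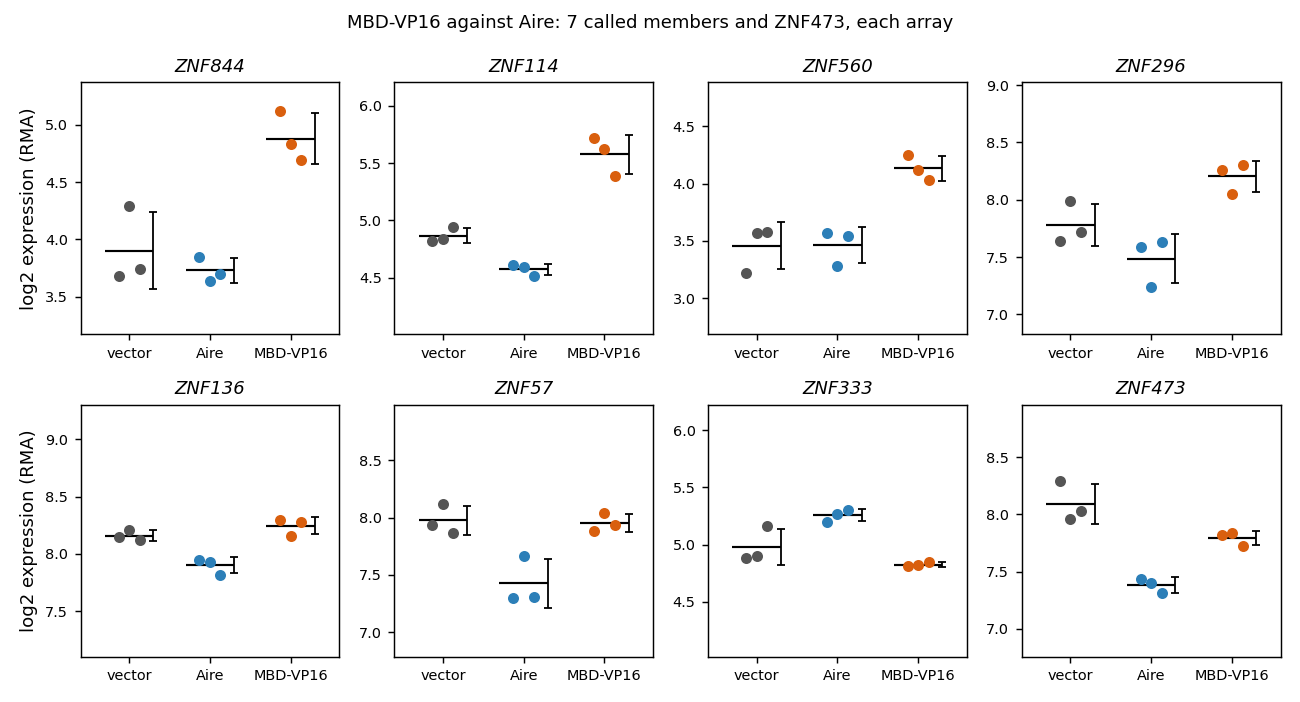
Log2 expression (vertical axis, RMA) on each of the 9 arrays for the 7 members called between MBD-VP16 and Aire and for ZNF473, which was not; points are arrays, lines are group means and bars are 1 SD (n = 3). The MBD-VP16 points lie above the Aire points in ZNF844, ZNF114, ZNF560, ZNF296, ZNF136, ZNF57 and ZNF473 and below them in ZNF333.

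Along the chromosome, members were grouped into neighbourhoods wherever the starts of successive members lay within 1 Mb. This gave 9 neighbourhoods of at least 5 members, which held 211 of the 222, and 7 smaller ones with the other 11. Beside the counts below, 6.06% of all clusters were higher and 7.57% lower with MBD-VP16, and 2.47% and 4.52% with Aire. Without vector replicate 1 these shares were 4.97% and 4.87%, then 2.09% and 2.67%. Counts within 1 neighbourhood are small and are not read as local results. Neighbourhood 1, on the short arm (2819903 to 2944931, 5 members), held ZNF556, higher with MBD-VP16, and ZNF57, lower with Aire, whose starts lie close together. Its median change was 0.12 with MBD-VP16 and -0.05 with Aire. ZNF77, on the opposite strand and overlapping ZNF57 in its coordinates, was not called. Between MBD-VP16 and Aire the median was 0.32, with 4 of the 5 members above 0 and ZNF57 called.

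Neighbourhood 2 (7069471 to 9875712, 15 members) held ZNF560, which rose with MBD-VP16, ZNF121 and ZNF317, which fell with it, and ZNF358, which rose with Aire. Neighbourhood 3 (11594244 to 12740676, 22 members with values) held ZNF844, ZNF563 and ZNF136. The medians of these 2 neighbourhoods were -0.21 and -0.12 with MBD-VP16 and -0.11 and -0.13 with Aire. With vector replicate 1 left out, those 4 medians were -0.05, -0.04, -0.02 and -0.06.

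Neighbourhood 4 (19779605 to 24312654, 30 members with values), next to the centromere, is the primate-expanded group around ZNF91. It was the neighbourhood with 3 of the 7 members that rose with MBD-VP16, ZNF737, ZNF738 and ZNF730, and 1 that fell, and its medians were 0.02 and 0.05. Leaving out vector replicate 1 gave 3 higher and 0 lower, with ZNF738 no longer called (adjusted p = 0.0729). Neighbourhood 5 (35168567 to 35454953, 5 members) had no call in any comparison.

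Neighbourhood 6 (36706035 to 38264393, 24 members with values) held the run ZNF461, ZNF420 and ZNF585A. With MBD-VP16 it had 4 members lower and none higher of 24, and with Aire 4 lower and 1 higher. Of all clusters, 7.57% were lower with MBD-VP16 and 4.52% with Aire. Its medians were -0.13 and -0.16, and the others of the 24, such as ZNF567, ZNF829 and ZNF568, which lie between ZNF461 and ZNF420 in this order, were not called. When vector replicate 1 was left out, the counts were 3 lower and 1 higher with MBD-VP16 and 3 lower and 0 higher with Aire, and the medians were -0.07 and -0.08.

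On the rest of the long arm, neighbourhood 7 (44037329 to 45579845, 21 members) had 3 members lower with MBD-VP16, ZNF155, ZNF227 and ZNF285A, and none with Aire. Neighbourhood 8 (52074525 to 54083523, 39 members) had 5 lower with MBD-VP16, ZNF578 and ZNF616 among them, and 1 with Aire. Neighbourhood 9, closest to the end of the long arm (55987699 to 58992597, 50 members), had 5 and 2, with ZNF256 and ZNF583 in both. Of all clusters, 7.57% were lower with MBD-VP16 and 4.52% with Aire. The lower counts with MBD-VP16 were 1, 2 and 3 without vector replicate 1, and neighbourhood 8 had 3 higher. In that fit 4.87% of all clusters were lower and 4.97% higher with MBD-VP16. Against vector, no neighbourhood had a median beyond 0.21 in size.

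Members next to each other in a neighbourhood were compared in their changes. Over 206 adjacent pairs, the log2 fold changes of the 2 neighbours correlated at 0.129 with MBD-VP16 and 0.085 with Aire, and had the same sign in 53.4% and 51.5% of pairs. Adjacent clusters of other chromosome 19 genes gave correlations of 0.0707 and 0.231 over 1068 pairs, and the same sign in 55.2% and 56.6%. Between MBD-VP16 and Aire the members correlated at 0.146 with the same sign in 60.2% of pairs, and the other clusters at 0.194 with 50.4%. Members 2, 3 and 5 steps apart correlated there at 0.0828, 0.106 and 0.136, with the same sign in 54.6%, 62.5% and 60.8%. The other clusters at these steps had 0.0433, -0.00415 and 0.0169, with 52.0%, 50.7% and 48.8%. Against vector, members at these steps correlated at 0.0259 to 0.0824 over the 2 constructs, with the same sign in 48.8% to 58.2%. Between MBD-VP16 and Aire, 67.6% of members and 44.7% of the other clusters had a negative change. A lean to one sign raises the share of pairs with the same sign whatever their order. These are descriptions across genes, which share the same arrays and are not independent replicates.

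ZNF genes of other chromosomes and the remaining genes of chromosome 19 were set beside the members. With MBD-VP16 against vector, the 260 ZNF clusters elsewhere gave 8 higher and 28 lower, a median of -0.073, and the 1075 other clusters of chromosome 19 gave 90 higher and 43 lower, a median of 0.047. With Aire the ZNF clusters elsewhere gave 4 higher and 11 lower, and the rest of chromosome 19 gave 25 and 40. No test of the difference between these sets was made.

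A single array moved with these counts. In vector replicate 1 the members lay a median of 0.128 above their own 9-array means and ZNF clusters elsewhere 0.123 above, while the rest of chromosome 19 lay 0.109 below (a median of -0.109) and all clusters at -0.02. For the members the other 8 arrays had medians of -0.076 to 0.017. Without vector replicate 1 the median of the members with MBD-VP16 was -0.029, that of ZNF clusters elsewhere -0.04 and that of the rest of chromosome 19 0.002. The counts were then 12 higher and 11 lower, 9 and 16, and 63 and 31 for the 3 sets with MBD-VP16, and 2 and 8, 7 and 7, and 17 and 26 with Aire. Of all clusters, 4.97% were then called higher and 4.87% lower with MBD-VP16, and 2.09% and 2.67% with Aire. The part of that array in the lower calls beyond these values was not tested.

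**Figure D4:**
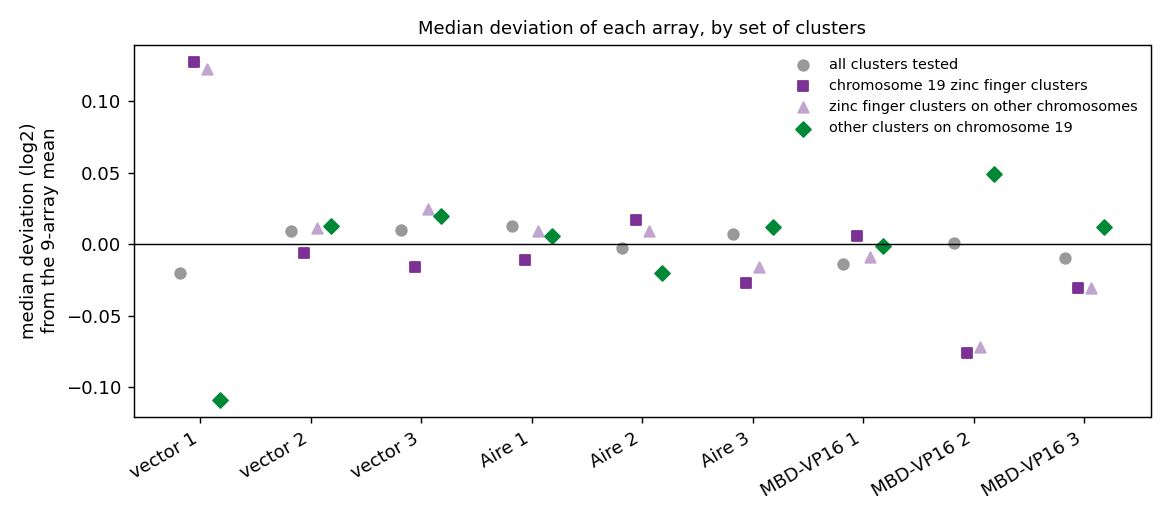
Median deviation from the 9-array mean in log2 units (vertical axis) on each array (horizontal axis), for all clusters tested, the chromosome 19 zinc finger clusters, those on other chromosomes and the other clusters of chromosome 19. On vector replicate 1 both zinc finger sets stand at 0.128 and 0.123, and the rest of chromosome 19 at -0.109.

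What the promoters of the members share was described from the RefSeq windows, which were found for 193 clusters of 191 genes; 29 clusters had none, ZNF114 among them. The median ratio of observed to expected CpG was 0.77, beside 0.58 over all 27303 promoters in the table, 0.81 for ZNF genes elsewhere and 0.76 for other genes of chromosome 19. Only 5.24% of the member promoters lay under 0.4, where 40.7% of all promoters did. Member promoters were thus mostly rich in CpG. Those of neighbourhood 4 were lower, with a median of 0.45 over 26 windows and 5 of the 10 windows under 0.4.

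Several short motifs were counted on both strands of these windows. The ETS core CCGGAAG stood in 42.4% of member promoters and 10.7% of all promoters, and the GC box GGGCGG in 66.5% and 44.6%. TATAAA was found in 1.57% and 12%, and the YY1 core AAGATGGC in 6.81% and 3.03%. Promoters of ZNF genes on other chromosomes held the ETS core in 35.7%, the GC box in 59.2%, TATAAA in 3.57% and the YY1 core in 3.57%. For other genes of chromosome 19 these shares were 13.2%, 68.0%, 7.25% and 6.06%. The ETS core was unevenly placed along the chromosome: 69.2% of windows in neighbourhood 4, 62.1% in neighbourhood 8 and 55.6% in neighbourhood 9 held it, against 5.0% in neighbourhood 3. The smallest neighbourhoods stood at the extremes, with 3 of 4 windows in neighbourhood 5 and 0 of 5 in neighbourhood 1. A match of these letters does not show that the factor binds.

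Set beside the changes, the 5 members with a window that rose with MBD-VP16 had CpG ratios of 0.31 to 0.63, and the 20 that fell had 0.22 to 0.99 with a median of 0.82. The 167 genes not called had a median of 0.76. Of the 5, ZNF737, at 0.35, lost its call in 7 of the 9 leave-one-out fits. In the 87 members at 0.8 and over, 0 rose and 14 fell with MBD-VP16, where 5.32% and 11% of all clusters in that range did. In the 96 members from 0.4 to 0.8, 3 rose and 5 fell, where 7.71% and 7.87% of all clusters did, and the 10 members under 0.4 had 2 and 1, where 4.55% and 2.42% did. The counts were 2 and 8, 4 and 2, and 2 and 1 in the same order without vector replicate 1, beside 4.68% and 7.06%, 6.14% and 4.83%, and 3.6% and 1.83% of all clusters. Among the genes that fell, ZNF574, at 0.22 with 6 CG pairs in its window, had the lowest ratio, and ZNF430 was at 0.52.

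Across the 193 members the CpG ratio and the log2 fold change correlated at -0.24 with MBD-VP16 and -0.22 with Aire. Without the 10 members under 0.4 these were -0.16 and -0.11, so the relation rests in part on few promoters. Over 14144 clusters with a window the correlations were -0.11 and -0.14, and over the 11092 of them at 0.4 and over they were -0.11 and -0.1. Leaving out vector replicate 1 gave -0.26 and -0.23 for the members and -0.03 and -0.04 over all clusters with a window. Both comparisons share the vector arrays, and the values are descriptions across genes.

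**Figure D5:**
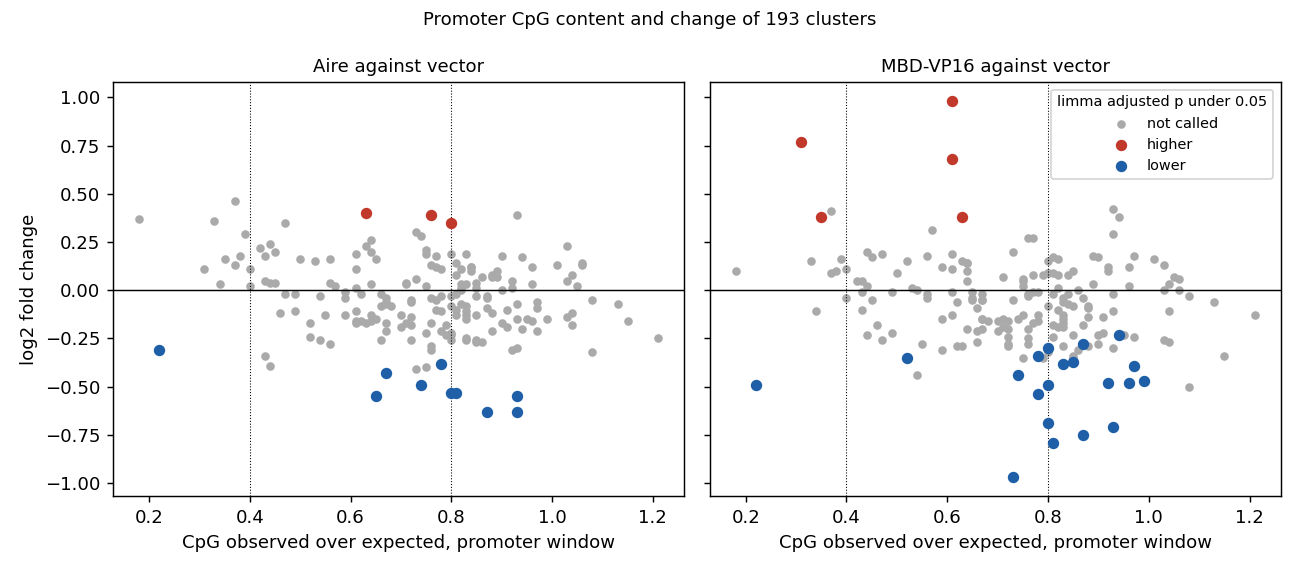
Log2 fold change (vertical axis) of 193 members against the ratio of observed to expected CpG in the promoter window (horizontal axis, no unit), with Aire against vector on the left and MBD-VP16 against vector on the right; red and blue points were called higher and lower by limma, and dotted lines mark ratios of 0.4 and 0.8. The red points on the right lie between 0.31 and 0.63, and most blue points lie near or above 0.8.

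ZNF91, which silences SVA elements, read 8.74, 8.76 and 8.53 with vector, 8.87, 8.95 and 8.82 with Aire and 8.94, 8.71 and 8.88 with MBD-VP16, and ZNF93, which represses a class of LINE-1 elements, read 5.97, 5.28 and 5.05, then 5.17, 5.06 and 5.04, then 5.28, 5.22 and 5.49. Both missed the threshold (adjusted p = 0.212 and 0.261 for ZNF91, and 0.34 and 0.786 for ZNF93, with Aire and MBD-VP16). ZNF274, which brings SETDB1 to the 3′ exons of other ZNF genes, was at -0.13 and -0.16 and was not called (adjusted p = 0.386 and 0.249). These 3 genes were picked for their roles, outside the rule for named genes and after values were seen.

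The array signal of the members covered most of the measured range. ZNF90 had the highest mean over the 9 arrays, 10.93, and ZNF665 the lowest, 3.08, although probe groups differ in their response and such levels do not rank the genes. The brightest members of neighbourhoods 3, 5, 8 and 9, ZNF791, ZNF302, the imprinted gene ZNF331 and ZNF460, were called in no comparison, and neither was ZNF90. Their 9 values spanned 8.64 to 9.01, 7.56 to 7.96, 8.43 to 8.90 and 9.01 to 9.29, and in ZNF460 the Aire arrays lay above the vector arrays without passing the test (0.15, adjusted p = 0.23). ZNF665, at 2.75 to 3.44, was not called either. Paralogous sequence is a limit for this family: the deposited table marks 1 member, ZNF836, as open to cross-hybridisation, and 922 of all clusters tested.

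Partners through which KRAB zinc finger proteins act were examined as well. Of a list of 22 corepressor genes, 21 were measured, on 22 clusters. With Aire, 1 cluster was called higher and 0 lower, and with MBD-VP16, 1 higher and 1 lower, where 6.98% and 13.6% of all clusters were called. CBX5, which encodes the HP1 alpha protein, read 10.73, 10.60 and 10.76 with vector, 11.11, 11.10 and 11.03 with Aire and 10.94, 10.97 and 11.00 with MBD-VP16. All Aire and MBD-VP16 arrays of CBX5 lay above all vector arrays (0.38, adjusted p = 0.0115, and 0.27, adjusted p = 0.0261), though the calls failed in 1 and 4 of the 9 leave-one-out fits.

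TRIM28, the KRAB domain's own corepressor, read 9.23, 9.17 and 9.19 with vector, 9.11, 9.02 and 9.09 with Aire and 8.99, 9.01 and 8.96 with MBD-VP16. Its groups did not overlap, and the small drop with MBD-VP16 was called (-0.21, adjusted p = 0.0471) but failed in all 9 leave-one-out fits (adjusted p up to 0.139). SETDB1 was at 0.04 with Aire and -0.03 with MBD-VP16 and was not called (adjusted p = 0.725 and 0.781). No corepressor gene was called between MBD-VP16 and Aire.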

How the data were processed

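RNA of 9 samples was measured on 1-colour arrays, 3 per group. Expression is given as log2 values to 2 decimals, which the authors obtained by RMA according to the submitters' processing notes. No source used here gives the version, annotation release or genome build. A second deposited table holds the authors' comparisons as log2 fold changes, linear ratios, p-values and false discovery rates, per the file headers, and its symbols and positions were used. Its 9 per-array columns were not used. Depth does not apply to arrays, and their number limits the precision.

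Groups came from the labels. All 18683 clusters with 1 symbol and values (3150 of 28829 had none) were fitted with lmFit and eBayes of limma 3.58.1, under R 4.3.3 (group as the only factor, two-sided tests, Benjamini-Hochberg over all of them, threshold 0.05), and the code was tested on simulated data. There 5 to 8 of 50 planted changes of 0.3 log2 units were recovered, and 25 to 29 of 50 of 0.5. Few simulated clusters carried a change, so recovery in the real data may differ. Members and lists were chosen with earlier results of these data known. Named are, against vector, up to 12 called members per direction with the largest changes, for MBD-VP16 against Aire up to 8, up to 6 per direction called in both, the brightest member per neighbourhood, the brightest and dimmest of all, and called corepressors with TRIM28 and SETDB1. Promoters came from RefSeq (GRCh38.p14), matched by gene identifier; protein features (finger counts, KRAB box) were planned and not computed. Alternatives tried were renewed quantile normalization, centring, the brighter clusters alone, a replicate block, 2-group fits, an intensity trend, all clusters with values, no cross-hybridising clusters, the authors' table, each array left out and a 500 kb gap.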

Additional observations from a re-analysis of the deposited data

How the results depend on the processing

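No called fold change of a named gene changed sign under an alternative, but without vector replicate 1 the members' counts with MBD-VP16 went from 7 higher and 23 lower to 12 and 11, and those of neighbourhood 8 from 0 and 5 to 3 and 2. The median of neighbourhood 8 was then 0.01 with each construct, in place of -0.02 with MBD-VP16 and -0.06 with Aire. Of 2385 repeats of the named genes' values, 2132 kept their side of the threshold, 204 calls were lost and 49 gained. With Aire against vector, the fit of clusters above the median signal gave 24 member calls and the intensity trend 23, each with 7 higher, and centring moved the members' median to -0.083. With MBD-VP16 against vector, centring gave 40 lower and a median of -0.127, a fit of the 2 groups alone gave 18 calls with 13 lower, the trend gave 11 higher, and the authors' deposited table gave 15 lower. With MBD-VP16 against Aire, the clusters above the median signal gave 4 calls with 0 lower, and the authors' deposited values gave 0 lower. With centring, 12.2% of all clusters were called lower with MBD-VP16. For the brighter-cluster, trend and 2-group fits and the authors' table, the share of all clusters called is not given here. Their counts are therefore not read as results about the members. The causes were not tested.

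Leaving out 1 array in turn gave 0 to 6 higher and 4 to 12 lower members with Aire (5 to 18 in all, median -0.067 to -0.008). It gave 5 to 12 higher and 11 to 27 lower with MBD-VP16 (17 to 32, median -0.085 to -0.029), and 2 to 7 higher and 0 to 1 lower between the constructs (2 to 8, median -0.073 to -0.027). In those fits 2.54% to 6.04% of all clusters were called with Aire, 7.42% to 12.7% with MBD-VP16 and 1.24% to 2.25% between the constructs. A 500 kb gap gave 10 neighbourhoods of at least 5 members in place of 9. The analyses without vector replicate 1 by neighbourhood and promoter class were chosen after seeing the data. Protein features were not run.

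The groups share replicate numbers, and the labels do not say whether these pair the arrays. Deviations of same-numbered arrays correlated at -0.0666 to 0.172, and those of differently numbered arrays of 2 groups at -0.207 to 0.147. With 3 arrays per group these values cannot settle the pairing. With the replicate number as a block, members called higher and lower were 2 and 11 with Aire, 7 and 22 with MBD-VP16, and 3 and 1 between the constructs (4 in place of 7). The share of all clusters called in that fit is not given here.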

Other observations

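A further 30 clusters on chromosome 19 carry several symbols with a ZNF gene among them and so lie outside the members. In a limma fit of all 25679 clusters with values, 0 of the 30 were called in any comparison, with the lowest adjusted p at 0.0511 for Aire, 0.0598 for MBD-VP16 and 0.372 between them. At an unadjusted p under 0.05 there were 6, 8 and 2. In the main fit 4202, 5204 and 2179 of the 18683 clusters with 1 symbol had such a p. The authors' deposited table has 1, 1 and 0 of them at a false discovery rate under 0.05. That rate is passed there by 12, 20 and 7 members in the 3 comparisons, of which 12, 20 and 6 are called in the same direction by limma. The share of all clusters that passes it is not given here, so these counts are not read as results about either set.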
